A study of Mustela putorius furo and Mus musculus with 4 samples.

Results

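The genes described here are 7 connexins, 2 pannexins and Tjp1, which encodes the junction scaffold ZO-1. They were taken by symbol, without regard to case, from the FPKM values of cultured ferret and mouse astrocytes, and 8 of the 10 had a value in both species, among 13373 symbols that the species shared. The 4 libraries were 2 from astrocytes of normally pigmented P1 ferrets (Mustela putorius furo) and 2 from astrocytes of wild-type ICR mice aged P1 to P3. All cultures came from the cerebral cortex, received no test agent, grew as mixed glia with serum for 14 days, were shaken and replated, and were without serum for the last days before RNA extraction. They are whole cultures of neonatal cells, so the values cover any other cell type that remained. By the study's methods, the cells of a single ferret pup were divided over several flasks, while several mouse pups were pooled in a flask. The study does not say whether the duplicates were separate cultures, and p-values then measure only the spread between these libraries, which may be technical. Species, gene annotation and culture cannot be told apart in this design.

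Connexins are membrane proteins that assemble into hemichannels, and docked hemichannels of neighbouring cells form the gap junctions that join astrocytes into a network for ions, metabolites and calcium signals. Gja1 (Cx43) and Gjb6 (Cx30) are the main astrocyte connexins, and Gjb2 (Cx26) is the neighbour of Gjb6 in the genome and is also known from the meninges. Pannexins form single-membrane channels that are best known for ATP release and do not usually dock. ZO-1 binds the tail of Cx43 at the rim of gap junction plaques.

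The connexin family is recognised by cysteines in its extracellular loops, and the codons of the first loop are shown to let the 7 connexins be compared. The sequences are mouse coding sequence from GENCODE transcripts on GRCm38, 5′ to 3′ on the coding strand. Capitals mark the 3 cysteine codons, which enclose 6 and then 3 other codons.
Gja1: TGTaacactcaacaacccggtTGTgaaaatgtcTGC
Gjb6: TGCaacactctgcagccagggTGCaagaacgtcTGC
Gjb2: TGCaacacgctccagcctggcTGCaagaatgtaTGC
Gjc1: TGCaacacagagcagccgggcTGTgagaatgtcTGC
Gja4: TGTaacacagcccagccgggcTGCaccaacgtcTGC
Gja5: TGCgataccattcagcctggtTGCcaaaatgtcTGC
Gjc3: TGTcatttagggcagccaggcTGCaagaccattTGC

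All 7 connexins held this pattern once in the coding sequence, and the coding sequences of Panx1, Panx2 and Tjp1 held no match. The Gja1 stretch lies at chr10:56387706-56387741 on the plus strand, and those of Gjb6 and Gjb2 at chr14:57124611-57124646 and chr14:57100558-57100593 on the minus strand. The others lie at chr11:102800984-102801019 (Gjc1, minus), chr4:127312774-127312809 (Gja4, minus), chr3:97050788-97050823 (Gja5, plus) and chr5:137957797-137957832 (Gjc3, minus). Of the 36 bases, 28 were equal to those of Gja1 in Gjc1, 26 in Gjb6, 25 in Gjb2 and Gja5, 24 in Gja4 and 18 in Gjc3. Over whole mouse coding sequences, the longest identical stretch between any pair of the 10 genes was 26 bases, between Gja1 and Gja4, and that between Gjb2 and Gjb6 was 20 bases.

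FPKM scales the fragments of a gene to its exon length and to the mapped fragments of the library, so levels can be compared between genes. Each species was quantified on its own gene models. The test was limma, on log2(FPKM + 1), over the 10204 shared symbols whose mean FPKM reached 1 in a species. A gene was called where its p, adjusted by Benjamini-Hochberg over these symbols, was under 0.05 and its log2 difference, ferret minus mouse, exceeded 1 in size. By this rule 13.1% of all tested symbols were called higher and 30.1% lower in ferret astrocytes, 43.2% were called in either direction, and 88.6% passed the adjusted p alone, so a call by itself sets no gene apart. The median log2 difference of all tested symbols was -0.35. After rescaling to the mean of the 4 sums, where every library is given one common total over the shared symbols, it was -0.01, with 19.1% called higher and 21.7% lower. Of the 10 genes, 7 were tested, and 4 of these were called lower and 2 higher in ferret astrocytes. Their median was -1.34. Gjb6 and Gja4 passed the filter through the mouse level alone and Panx2 through the ferret level alone, so this count is a description.

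**Figure D1:**
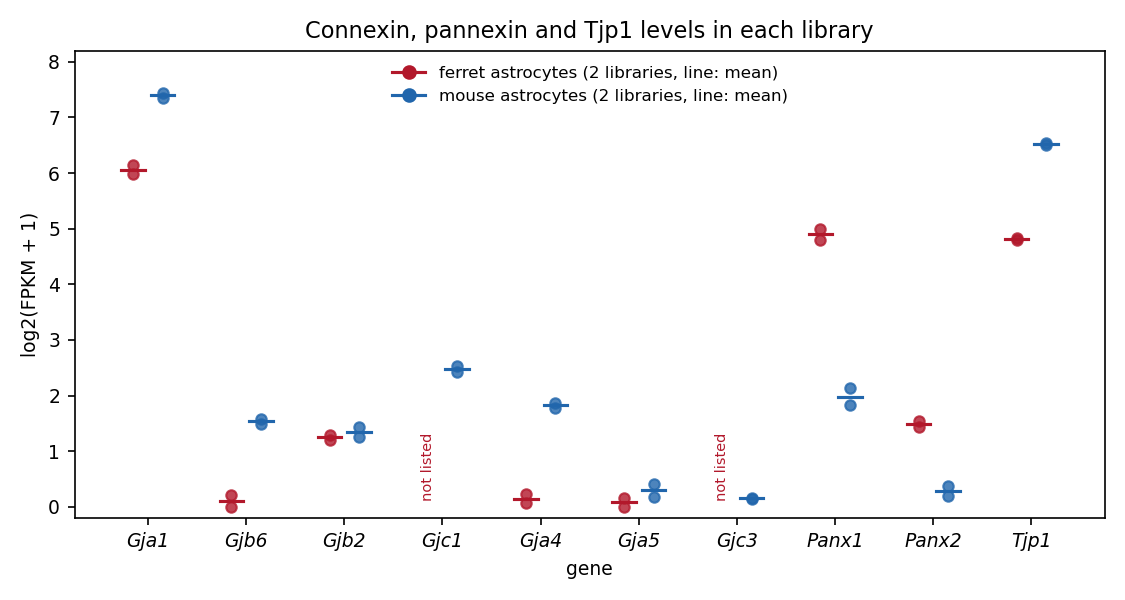
Each point is 1 library on the log2(FPKM + 1) axis, with red for ferret astrocytes, blue for mouse astrocytes and a line at the mean of each pair. Gja1 and Tjp1 stood lower and Panx1 and Panx2 higher in both ferret libraries than in both mouse libraries, while the points of Gjb2 overlapped.

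Gja1 had the highest level of the 10 genes in all 4 libraries. The ferret libraries had 69.7 and 61.9 FPKM of it, and the mouse libraries had 163 and 173 FPKM. Both ferret libraries were below both mouse libraries, with a mean of 65.8 ± 5.55 (SD, n = 2) against 168 ± 7.20 (SD, n = 2), 2.55 times higher in mouse astrocytes. The log2 difference was -1.34 (SE 0.071, limma adjusted p = 4.57e-08), or -0.99 relative to the median of all tested symbols. After rescaling to the mean of the 4 sums it was -0.95 and after quantile normalization -0.99, so that Gja1 stayed lower in ferret astrocytes but fell just short of the log2 difference of 1 needed for a call. Among the shared symbols of each library, Gja1 stood at the 95.7th and 94.6th percentile in ferret and at the 98.2nd and 98.3rd in mouse astrocytes. The mouse gene spans chr10:56377330-56402513 on the plus strand, with its whole coding sequence in 1 exon.

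Gjb6, the connexin that joins Cx43 in maturing astrocytes, was listed at 0 in ferret replicate 1 and at 0.164 FPKM in ferret replicate 2, against 1.79 and 2.00 in the mouse libraries. The ferret values lay below the mouse values, and both species were low. The log2 difference was -1.42 (SE 0.094, limma adjusted p = 2.46e-07), and with a pseudocount of 0.1 it was -3.62, since its size at these levels follows from the pseudocount. Gjb6 passed the filter through the mouse level alone, so this p is a description. Gjb2 stood at 1.45 and 1.31 FPKM in ferret and at 1.37 and 1.71 in mouse astrocytes, and the libraries of the species overlapped. Its log2 difference was -0.10 (95% interval -0.30 to 0.11, limma adjusted p = 0.333), and its sign changed with the scaling, with 0.14 after rescaling to the mean of the 4 sums. After quantile normalization it was 0.30 (limma adjusted p = 0.0151), below the size needed for a call. The mouse genes are neighbours on the minus strand, with Gjb2 at chr14:57098600-57104702 and Gjb6 at chr14:57123303-57133611.

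Among the connexins best known from vessels, Gja4 (Cx37), a connexin of endothelium, had 0.175 and 0.041 FPKM in ferret and 2.64 and 2.43 in mouse astrocytes. Both mouse libraries were above both ferret libraries, by a log2 difference of -1.68 for ferret minus mouse (SE 0.088, limma adjusted p = 4.33e-08), and of -3.74 with a pseudocount of 0.1. Gja4 passed the filter through the mouse level alone, so this p is a description. Gja5 (Cx40), found in arterial endothelium, was listed at 0 and at 0.113 FPKM in ferret and stood at 0.331 and 0.133 in mouse astrocytes, below the filter in both species, and was not tested. The mouse Gja5 locus, chr3:96904693-97077416, overlaps genes on the other strand, and exons of Gja5 overlap the spans of Gpr89 and 4930573H18Rik. The strand setting of the quantification is not given in the sources used here. The 12 endothelial markers summed to 0.806 and 0.876 FPKM in ferret and to 29.0 and 29.4 in mouse astrocytes, of which Cdh5 held 21.96 and 22.46. In the mouse libraries 9 of the 12 had a mean under 1, with Cldn5 and Sox17 listed at 0 in both and Pecam1 at 0.041 and 0.031. Of 10 mural cell markers, 9 had a ferret value, and the listed genes summed to 194 and 170 FPKM in ferret and to 1133 and 1175 in mouse astrocytes. Of the mouse sums, Tagln held 879 and 906 and Acta2 221 and 238, and 5 of the 10 had a mouse mean under 1. Tagln held 151 and 130 of the ferret sums. The part of either cell type in the Gja4 values was not tested.

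Gjc1 (Cx45), which is expressed in vascular and neural cells, was at 4.38 and 4.76 FPKM in mouse astrocytes, where it ranked second among the mouse connexins. Gjc3 (Cx29), a connexin of myelinating glia, had 0.110 and 0.107. Both had a mouse value alone and were not compared here. The RefSeq annotation of the ferret holds both symbols, and their levels in ferret astrocytes are not known from these values.

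On the log2(FPKM + 1) scale Panx1 differed most of the 7 tested genes, while with a pseudocount of 0.1 the differences of Gja4 and Gjb6 were larger in size. The ferret libraries had 26.8 and 31.0 FPKM of it, whereas the mouse libraries had 2.56 and 3.37 FPKM. The lowest ferret value was far above the highest mouse value, and the means were 28.9 ± 3.02 (SD, n = 2) and 2.97 ± 0.570 (SD, n = 2), 9.74 times higher in ferret astrocytes. The log2 difference was 2.92 (SE 0.107, limma adjusted p = 3.45e-09), and 1.26% of all tested symbols had a larger one. It was 3.25 after rescaling to the mean of the 4 sums and 3.33 after quantile normalization. Within a library, Panx1 stood at the 86.2nd and 88.1st percentile of shared symbols in ferret and at the 35.6th and 38.9th in mouse astrocytes. The mouse gene lies on the minus strand at chr9:15002128-15045478, where no other gene overlaps it.

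Panx2, a pannexin known from the nervous system, had 1.70 and 1.92 FPKM in ferret and 0.138 and 0.302 in mouse astrocytes. The ferret values lay above the mouse values, by a log2 difference of 1.21 (SE 0.092, limma adjusted p = 7.06e-07), or 2.62 with a pseudocount of 0.1. Panx2 passed the filter through the ferret level alone, so this p is a description. The mouse gene at chr15:89059734-89073567 on the plus strand has an exon that overlaps the span of 1810021B22Rik, an antisense gene. Panx3, known from skin and cartilage, stood at 0.029 and 0 FPKM in ferret and at 0.012 and 0 in mouse astrocytes.

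Tjp1 had 26.9 and 27.5 FPKM in ferret and 89.3 and 91.8 in mouse astrocytes. The duplicates lay close together and the species did not overlap, with a mean 3.33 times higher in mouse astrocytes. The log2 difference was -1.70 (SE 0.057, limma adjusted p = 1.85e-09), and it stayed a call after rescaling to the mean of the 4 sums (-1.32) and after quantile normalization (-1.34). Of all tested symbols, 14.7% had a lower difference. The mouse gene lies on the minus strand at chr7:65296165-65527781, and its exons fall into 31 separate regions. Tjp3 was low, at 0.319 and 0.340 FPKM in ferret and 0.160 and 0.253 in mouse astrocytes.

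**Figure D2:**
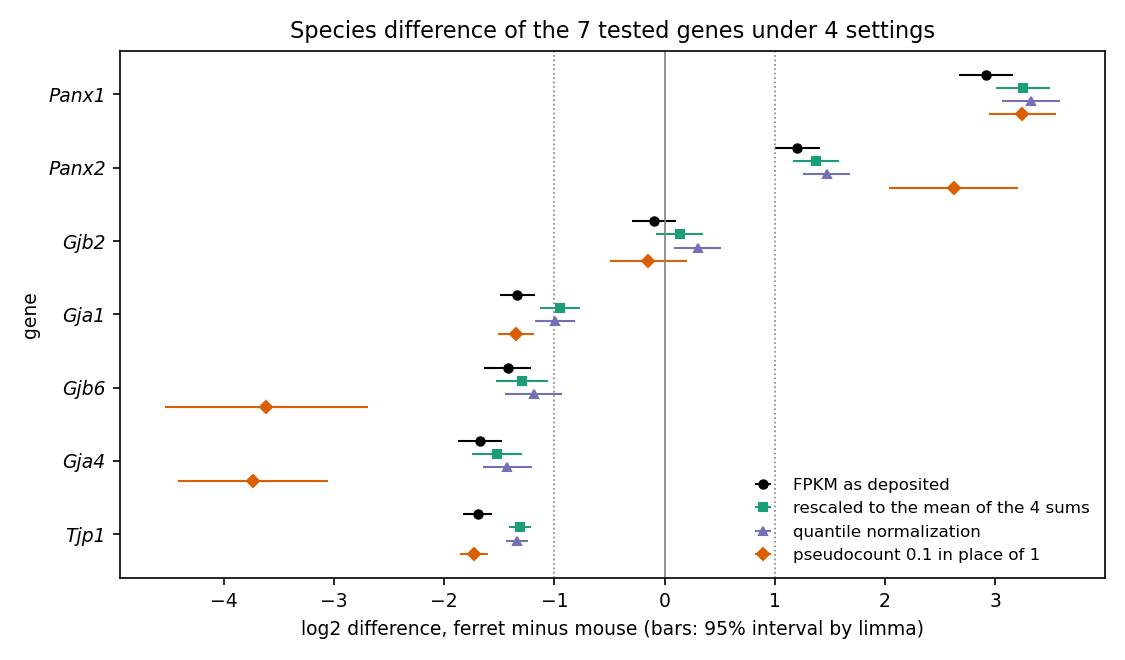
Points give the log2 difference, ferret minus mouse, of each tested gene under 4 settings (FPKM as deposited, rescaling to the mean of the 4 sums, quantile normalization and a pseudocount of 0.1), and bars the 95% interval by limma. Dotted lines stand at the size needed for a call. Panx1 and Panx2 lie right of 1 and Tjp1, Gja4 and Gjb6 left of -1 under each of the 4, Gja1 moves from -1.34 to -0.95 with rescaling, and Gjb2 lies on either side of 0.

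Ratios within a library do not change when a library is rescaled. Panx1 reached 38.4% and 50.1% of the Gja1 level in ferret astrocytes, but 1.58% and 1.95% in mouse astrocytes. It was about level with Tjp1 in ferret astrocytes, at 99.4% and 113% of it, and stood at 2.87% and 3.67% of it in mouse astrocytes. The level of Tjp1 relative to Gja1 differed less, with 38.6% and 44.4% in ferret and 55.0% and 53.1% in mouse astrocytes. For each of the 3 ratios the species did not overlap, and the exact two-sided permutation test gave p = 0.333, the smallest p that 2 against 2 libraries can give.

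**Figure D3:**
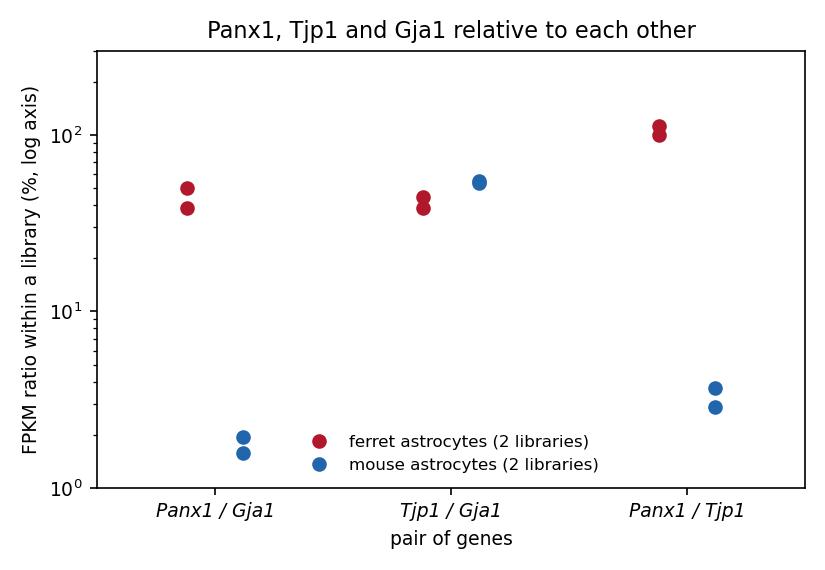
Each point is the ratio of the FPKM of a pair of genes in 1 library, in percent on a log axis, with red for ferret and blue for mouse astrocytes. The ferret libraries stand at 38.4% and 50.1% for Panx1 over Gja1 and the mouse libraries at 1.58% and 1.95%, while for Tjp1 over Gja1 all 4 lie between 38.6% and 55.0%.

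In mouse astrocytes the order of the levels was Gja1, Tjp1, Gjc1, Panx1, Gja4, Gjb6, Gjb2, Gja5, Panx2 and Gjc3. Neighbours whose duplicates overlapped were Panx1 with Gja4 and Gja5 with Panx2. In ferret astrocytes the order was Gja1, Panx1, Tjp1, Panx2, Gjb2, Gja4, Gjb6 and Gja5. The duplicates of Panx1 and Tjp1 overlapped there, as did those of the lowest genes, Gja4, Gjb6 and Gja5.

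Gja1 made up most of the summed connexin FPKM in both species. Of the summed FPKM of the 5 connexins compared, Gja1 held 97.7% and 97.4% in ferret and 96.4% and 96.5% in mouse astrocytes (exact permutation p = 0.333). Over the 14 connexin genes listed in both species it held 92.4% and 92.5% in ferret and 94.7% and 94.8% in mouse astrocytes, so which species had the larger share depended on the genes counted. Gjc1, without a ferret value, is in neither set. All connexin genes that a species listed were 15 in ferret and 20 in mouse. Of their sums Gja1 held 90.7% and 90.8% in ferret and 92.2% and 92.3% in mouse astrocytes. Of 16 other connexin and pannexin genes looked for, 10 had a value in both species. Gja3, a lens connexin, had 0.531 and 0.415 in ferret and 0.971 and 1.07 in mouse astrocytes, a log2 difference of -0.46 that was not called. GJA9, with a value in the ferret alone, had 1.49 and 1.29 FPKM. A mean of at least 1 was reached by 2 of the listed genes in ferret and by 2 in mouse astrocytes.

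The symbols whose levels over the 4 libraries were nearest to those of Gja1, by Euclidean distance in log2(FPKM + 1), were Thbs1 (distance 0.14), Rab18 (0.14) and Ghitm (0.18). Thbs1 had 64.9 and 63.2 FPKM in ferret and 172 and 167 in mouse astrocytes. With 4 libraries in 2 groups, nearness means only a like level in each species.

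The LRRC8 proteins form the volume-regulated anion channel and share ancestry with pannexins. Lrrc8b stood at 21.3 and 20.5 FPKM in ferret and 4.44 and 4.69 in mouse astrocytes, a log2 difference of 1.98 (SE 0.068, limma adjusted p = 2.29e-09). Lrrc8c was lower in ferret astrocytes, with 5.93 and 6.23 against 13.6 and 14.8 FPKM, a log2 difference of -1.10 that fell short of a call in each of the 3 other scalings. Lrrc8a, the obligatory subunit, had 13.1 and 14.3 FPKM in ferret and 12.7 and 14.5 in mouse astrocytes, and the species overlapped (log2 difference 0.02, limma adjusted p = 0.860). Lrrc8d had 24.7 and 25.4 in ferret and 16.6 and 16.1 in mouse astrocytes, a log2 difference of 0.58 that was not called. Lrrc8e, at 0.570 and 0.545 in ferret and 0.254 and 0.285 in mouse astrocytes, was below the filter.

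Of 22 partners and regulators of connexins and pannexins, 20 were tested, with 2 higher and 6 lower in ferret astrocytes and a median log2 difference of -0.02. These counts are near the shares over all tested symbols, 13.1% higher and 30.1% lower. Of the lower genes, Cnst passed the filter through the mouse level alone. Nedd4, a ubiquitin ligase known to act on Cx43, differed most, with 15.1 and 14.9 FPKM in ferret and 299 and 300.2 in mouse astrocytes, a log2 difference of -4.23 (SE 0.055, limma adjusted p = 9.02e-12). The highest differences were those of Cav1 (1.28), a caveolin, and Ywhaq (1.11), a 14-3-3 protein.

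Of 25 tight junction genes, 16 were tested, with 3 higher and 6 lower and a median of -0.73. For this and the adherens junction list, the shares over all tested symbols were 13.1% higher and 30.1% lower. Cldn1, a claudin, had 6.68 and 5.71 FPKM in ferret and 0.468 and 0.550 in mouse astrocytes, a log2 difference of 2.25. Cldn1 passed the filter through the ferret level alone, and Cldn10, called lower, through the mouse level alone, so these calls are descriptions. Jam3, a junctional adhesion molecule, was higher by a log2 difference of 1.58, while Amot, an angiomotin, and Cldn12 were lower, with differences of -2.12 and -1.996. Of 12 adherens junction genes, 11 were tested, with 0 higher and 3 lower by limma and a median of -0.53. At an unadjusted p under 0.05, 2 of the 11 were higher and 8 lower, against 3317 higher and 5762 lower of all 10204 tested symbols. The 3 lower genes were the cadherins Cdh11 (-2.70) and Cdh2 (-1.24) and the catenin Ctnna2 (-1.31), and after rescaling to the mean of the 4 sums Cdh11 was the one still called. Ctnnb1, chosen after its values were seen, had the highest difference of that list, at 0.78, and was called higher under each of the 3 other scalings.

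**Figure D4:**
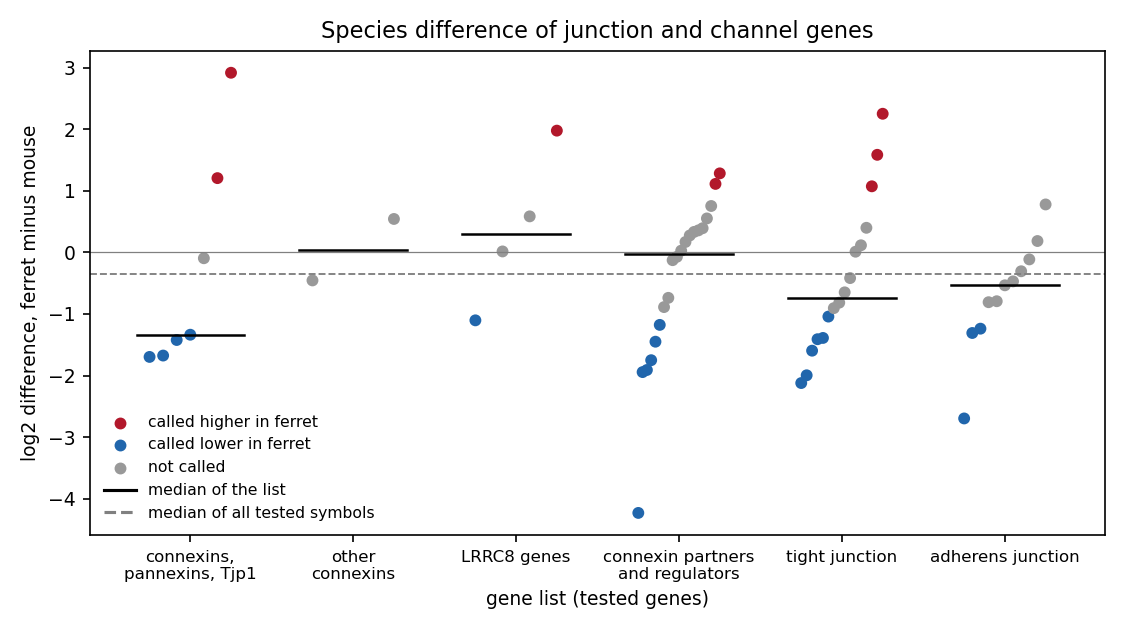
Each point is 1 tested gene at its log2 difference, ferret minus mouse, in red where called higher, in blue where called lower and in grey where not called. Black lines give each list's median and the dashed line the median of all tested symbols, -0.35. Nedd4 at -4.23 is the lowest point and Panx1 at 2.92 the highest.

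The label of the cells was checked against 11 astrocyte markers, of which all 11 in mouse and 10 in ferret astrocytes had a mean FPKM of at least 1. Of the 11, 7 were called lower and 1, S100b, higher in ferret astrocytes. Of those called lower, Apoe and Slc1a2 were the lowest and Slc1a3, at -1.16, differed least. Slc1a2 passed the filter through the mouse level alone. By immunostaining of cultures kept with serum, the study counted mostly astrocytes in both species, with few microglia in both and few neurons in ferret. Marker RNA of other cell types differed between the species as well. For these marker counts, the shares over all tested symbols were 13.1% higher and 30.1% lower. Of the meningeal fibroblast markers, 10 of 11 were tested and 9 called lower, with sums of 128 and 113 FPKM in ferret and 1722 and 1695 in mouse astrocytes. The lowest were Serpinf1 and Col3a1, and of those called Col1a2 and Foxc1 differed least. Serpinf1, Foxc1, Lum and Pcolce, all called lower, passed the filter through the mouse level alone. Of 16 microglial markers, 14 were tested and 13 called lower. Of those called, Tyrobp and C1qb were the lowest and Tmem119 and P2ry12 differed least. Cx3cr1 was listed at 0 in both ferret libraries. Of the 14 tested, 11 had a ferret mean under 1 and passed the filter through the mouse level alone. Of the mural cell markers, 6 were tested, with Kcnj8 higher and Pdgfrb, Tagln and Acta2 lower. Kcnj8 passed the filter through the ferret level alone. All 3 endothelial markers tested (Cdh5, Esam and Tek) were called lower. All 12 of that list had a ferret mean under 1, so a tested one could only be lower. Of the 8 oligodendrocyte lineage markers tested 3 were called higher, with Sox10 and Mbp the highest. Olig2 (-0.82), Cspg4 (-0.47) and Myrf (-0.08) were lower and not called. The listed ones summed to 168 and 187 FPKM in ferret and 177 and 186 in mouse. Olig1, without a ferret value, held 107 and 117 of the mouse sums. Of the 4 neuron markers tested Syt1, Dcx and Gad1 were called higher, and Map2 (-0.68) was not called. The listed ones summed to 28.2 and 28.1 FPKM in ferret and 156 and 161 in mouse. Stmn2, without a ferret value, held 124 and 127 there. Sox10, Dcx, Gad1 and Mag, which was not called, passed the filter through ferret alone. The part of these cell types in the levels of the connexins, of the pannexins and of Tjp1 was not tested, and in whole cultures fewer cells of a type and less RNA per cell cannot be told apart.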

How the data were processed

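Per the labels and the study's methods, the authors aligned paired-end reads of stranded, polyA-selected libraries with STAR 2.7.0f to the ferret or mouse genome (MusPutFur1.0 and GRCm38, Ensembl annotation of each). They deposited FPKM values of each library from Cufflinks 2.2.1, in 16853 rows for 14584 ferret symbols and 55257 rows for 55139 mouse symbols. Read counts that the study gives in its supplement were not used here, so no depth of a library is given. An estimate of its ratio between duplicates, replicate 1 over replicate 2, was 1.17 for ferret and 0.835 for mouse. It is the most common ratio among rows of low FPKM, at or near which 29.0% of these lay in ferret and 19.3% in mouse. Between 8.45% and 10.4% of the shared symbols were listed at 0.

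Here symbols were matched in upper case, with the row of the highest species mean where a symbol had several. All 10 genes had 1 row per species that listed them. Species were compared by an empirical Bayes fit with a mean-variance trend in limma 3.58.1 (R 4.3.3), which was first tested on simulated data. The study states no test for these values. Single ratios were tested by exact permutation with scipy 1.17.1. Alternatives were a pseudocount of 0.1, no filter, rescaling to a sum of 1000000 or to the mean of the 4 sums, a block for the replicate number, quantile normalization, no trend, summed rows, and each library left out. Mouse coordinates and codons are from GENCODE on GRCm38, in a release other than the authors' annotation. No ferret genome was used, and of the ferret's RefSeq annotation only the symbols of the 10 genes were looked up.

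The genes and lists were chosen with earlier results of these data known. Named are all 10 genes, other connexins and pannexins with a mean of at least 1, all LRRC8 genes, the 2 called genes with the highest and the 2 with the lowest difference of each other list, and the 3 symbols nearest to Gja1. Panx3, Tjp3, Ctnnb1 and some cell type markers were named after their values were seen. Some genes that this rule names are not reported here.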

Additional observations from a re-analysis of the deposited data

How the results depend on the processing

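Of 6 calls among the 7 tested genes, those of Panx1, Panx2, Tjp1, Gja4 and Gjb6 held under every alternative run. Gjb6 and Gja4 passed the filter through the mouse level alone and Panx2 through the ferret level alone. A call in the other direction was hardly possible for them, so their calls are descriptions. Gja1 stayed lower in ferret astrocytes, but its log2 difference fell short of a call under 3 scalings, at -0.96 (sum of 1000000), -0.95 (mean of the 4 sums) and -0.99 (quantile normalization). For Gjb2 these gave 0.20, 0.14 and 0.30, and without mouse replicate 2 it was 0.0012. With each library left out in turn it ranged from -0.19 to 0.0012. The Gja1 share of connexin FPKM, ferret minus mouse, was 1.16 percentage points, but -2.25 over the 14 connexins listed in both species and -2.08 with 1 added to each FPKM. The count of other connexins called higher rose from 0 to 1 with a sum of 1000000. Under this and the other 2 scalings, 0 LRRC8 genes were called lower and 1 adherens junction gene was called higher, and with the mean of the 4 sums or quantile normalization 1 adherens junction gene was called lower. Each of these scalings raised the split of calls over all tested symbols from 30.3% higher to 46.4%, 46.9% and 50.0%. The replicate number as a block changed no call among the 7 genes, with Panx1 at 2.92 and Gja1 at -1.34. Deviations of same-numbered libraries were uncorrelated (r = 0.01 over 10204 genes, which are not independent replicates). With a single difference between duplicates in each species, this cannot show whether same-numbered libraries shared a preparation. With 1 library left in a species, that library is assumed to vary like the others. Low values, such as those of Gjb6 and Gja4, carry no interval for counting error, as read counts were not used here.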
